A study of Mus musculus with 34 samples.

Results

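Ductular, progenitor and keratin genes of the mouse liver are described here across 6 groups of livers: the transcription factors Sox9 and Elf3, the keratins Krt7, Krt8, Krt18 and Krt19, the surface proteins Epcam, Cd24a and Ly6d, and the fetal serum protein Afp. These 10 genes were taken by symbol from tables that hold 55487 gene IDs each, and all 10 were found once in both tables. Polyadenylated liver RNA of male mice aged 3 months was sequenced in 2 batches, each with its own table. The first batch holds, by the labels, 5 libraries of PiZ mice that also lack p50 (PiZ p50KO) and received PBS, 5 of PiZ mice that received PBS, 6 of wild-type (WT) mice collected 2 h after TNFa, and 6 of WT mice that received PBS. The second batch holds 6 libraries of WT mice collected 24 h after tunicamycin and 6 of WT mice that received its vehicle, DMSO. All injections were intraperitoneal. PiZ is the name of mice that carry the human Z variant of alpha-1 antitrypsin, a secreted protease inhibitor that polymerizes in the endoplasmic reticulum of hepatocytes, p50 is the NF-kappa-B subunit encoded by Nfkb1, and tunicamycin blocks N-linked glycosylation and causes endoplasmic reticulum stress. The PiZ p50KO mice had no control with the deletion alone, and the labels do not give the transgene's promoter, the deleted exons, or whether each library came from a separate mouse, so the p-values measure the spread between these libraries.

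Bile ducts are lined by cholangiocytes, which express Sox9, Krt7, Krt19 and Epcam. In injured liver, periportal hepatocytes and progenitor-like cells can gain some of these genes. Krt8 and Krt18 pair with each other to form the intermediate filaments of hepatocytes, whereas Krt7 and Krt19 are typical of duct cells. Cd24a encodes a small glycosylated surface protein found on progenitor cells, Elf3 an epithelial factor of the ETS family, Ly6d a glycolipid-anchored surface protein, and Afp the fetal counterpart of albumin, which is switched off after birth. The libraries are bulk liver, so a higher level can come from more cells of a type or from more RNA per cell, and these cannot be told apart.

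One library stood apart. WT PBS 2 held 10.2 M reads, of which 72.2% fell on protein-coding genes, with 32360 genes above 1 CPM (counts scaled to the library total). The other 21 libraries of the first table held 35.5 to 54.0 M reads, 97.3% to 97.8% of them on protein-coding genes, with 11683 to 13202 genes above 1 CPM, and the second table ranged from 34.3 to 47.8 M reads. In WT PBS 2 the levels were 6.52 log2 CPM for Sox9, 5.37 for Krt7, 5.76 for Krt19, 4.07 for Epcam, 4.61 for Cd24a, 3.14 for Afp, 4.42 for Elf3 and 2.60 for Ly6d. Each of these 8 was above every other WT PBS library, and Krt8 at 6.96 and Krt18 at 6.48 were below every other one. WT PBS 2 was left out, so WT PBS is 5 libraries below, and counts of called genes with it are given for each comparison. Nfkb1, the deleted gene, had 4.51, 4.86, 3.31, 3.74 and 3.37 log2 CPM in the libraries labelled PiZ p50KO 1 to 5, 4.62 to 5.58 in PiZ and 3.92 to 4.34 in WT PBS. PiZ p50KO 1 and 2 lay above the WT PBS range and PiZ p50KO 3, 4 and 5 below it. Counts over the whole gene do not check a deletion of part of it. Among TNFa livers, library 4 was lowest for Nfkb1 with 4.77 log2 CPM, and the remaining 5 lay between 6.57 and 6.95.

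In the deposited annotation (GRCm38) all 10 are protein-coding genes, and reads over their exons were counted. Sox9 lies at chr11:112782224-112787760, Krt19 at chr11:100140810-100148665, Krt7 at chr15:101411043-101430313, Krt8 at chr15:101996698-102004482, Krt18 at chr15:102028180-102032027 and Ly6d at chr15:74762056-74763620. Epcam lies at chr17:87635979-87651129, Cd24a at chr10:43578284-43584265, Afp at chr5:90490737-90508907 and Elf3 at chr1:135253575-135258568.

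Promoter sequences from RefSeq (build GRCm38.p6), covering 250 bases before and 50 after each annotated start, were at hand for 6 of the 10 genes. Those of Krt8 and Krt18 are shown because both genes lie on chromosome 15, point away from each other and moved together in every comparison in which either changed, and that of Elf3 because it changed in both PiZ and TNFa livers. Each is written 5′ to 3′ on the gene's own strand, with matches to the motifs searched in capitals.
Krt8, chr15:102004293-102004592, minus strand: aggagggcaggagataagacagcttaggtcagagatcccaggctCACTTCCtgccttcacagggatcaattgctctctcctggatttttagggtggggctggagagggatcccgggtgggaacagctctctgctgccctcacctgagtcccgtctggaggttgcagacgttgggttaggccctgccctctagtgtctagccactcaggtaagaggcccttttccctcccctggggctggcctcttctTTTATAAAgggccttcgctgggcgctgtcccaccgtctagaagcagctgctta
Krt18, chr15:102027966-102028265, plus strand: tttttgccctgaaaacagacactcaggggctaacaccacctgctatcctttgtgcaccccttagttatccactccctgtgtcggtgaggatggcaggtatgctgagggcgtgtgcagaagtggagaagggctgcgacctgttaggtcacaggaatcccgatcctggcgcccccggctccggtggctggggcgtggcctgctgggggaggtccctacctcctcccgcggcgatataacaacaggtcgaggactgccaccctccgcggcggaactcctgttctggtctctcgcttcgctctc
Elf3, chr1:135258423-135258722, minus strand: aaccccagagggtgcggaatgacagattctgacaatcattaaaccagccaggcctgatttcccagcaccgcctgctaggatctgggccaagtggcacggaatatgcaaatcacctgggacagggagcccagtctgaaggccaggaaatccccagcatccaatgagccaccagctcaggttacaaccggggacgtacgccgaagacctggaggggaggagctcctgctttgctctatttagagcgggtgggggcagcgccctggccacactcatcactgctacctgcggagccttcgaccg
The motifs, searched on both strands, were TATAAA, the kappa-B letters GGGACTTTC and GGAANTTCC, the ATF4 and CHOP composite TGATGNAA, the SOX core ACAATG and the ETS letters GGAAGTG. They occur in 13.6%, 0.353%, 0.928%, 3.97%, 12.6% and 11% of 32851 promoters of the same length. In the Krt8 window TATAAA was found on both strands, at -3 and -1 from the RefSeq start in 2 overlapping matches, and GGAAGTG on the opposite strand at -206. Afp held TATAAA at -7 and GGAAGTG on the opposite strand at 29, and Krt7 held GGAAGTG at -167. None of these letters was found in the windows of Krt18, Elf3 or Epcam, which says only that these letters are not there. Other forms of the kappa-B site were not searched, so the absence of such a site is not shown.

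PiZ livers were compared with WT PBS livers to ask what differs in mice that carry the Z variant. No group carried the normal human protein, so effects of the variant and of the transgene itself cannot be told apart. Of the 10 genes, 9 were higher in PiZ: the keratins Krt8, Krt18 and Krt19, the surface proteins Epcam, Cd24a and Ly6d, the factors Sox9 and Elf3, and Afp. Of all genes tested, 40.8% were called higher, so a call by itself is common here. The 10 genes had a median log2 fold change of 2.03, against 0.42 for all genes tested, and for the same 9 every PiZ library was above every WT PBS library, as for 29.0% of all genes tested. Calls are from limma with Benjamini-Hochberg adjustment over all genes tested, at an adjusted p under 0.05. The fit that kept WT PBS 2 called 5 of the 10, against 11.9% of all genes.

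Krt8, the type II keratin of hepatocytes, had 10.001, 9.96, 10.09, 9.23 and 10.11 log2 CPM in PiZ 1 to 5, against 7.29, 7.65, 7.42, 7.75 and 7.78 in WT PBS 1, 3, 4, 5 and 6. Its partner Krt18 had 9.80, 9.52, 9.56, 8.94 and 9.66 log2 CPM in PiZ, against 7.18, 7.14, 7.23, 7.28 and 7.68 in WT PBS. All PiZ libraries were above all WT PBS libraries for both genes, and PiZ 4 was the lowest of its group for both. Krt8 rose 4.92-fold (log2 fold change 2.30 ± 0.24 SE, adjusted p = 2.5e-07) and Krt18 rose 4.56-fold (2.19 ± 0.23, adjusted p = 3.1e-07). Per kilobase of exon they were also the most abundant of the 10 in PiZ livers, at 492 CPM per kb for Krt8 and 511 for Krt18, against 98.5 and 111 in WT PBS livers. A processed copy of Krt8, Krt8-ps, took reads equal to 1.95% to 2.72% of those of Krt8 in PiZ and 2.07% to 2.59% in WT PBS, and reads shared between them could be split by the counting.

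The duct keratins were much scarcer. Krt19, a standard cholangiocyte marker, had 2.22, 1.81, 2.12, 1.63 and 2.42 log2 CPM in PiZ, against 0.50, 1.43, 0.18, 0.79 and 1.26 in WT PBS. The gap between the lowest PiZ and the highest WT PBS library was small, and the difference was 1.2 ± 0.26 (2.30-fold, adjusted p = 0.00084). Krt7, the other duct keratin, had 0.13, 0.11, 0.47, 0.08 and 0.94 log2 CPM in PiZ, against -0.41, 0.19, -1.59, -0.61 and -0.46 in WT PBS. It rests on 37 to 96 reads per PiZ library and 14 to 47 per WT PBS library, the groups overlapped through WT PBS 3, and the difference of 0.92 (95% interval -0.46 to 2.30, adjusted p = 0.27) was not called. With only these 2 groups in the fit Krt7 was called (adjusted p = 0.032). Krt19 lost its call when libraries were shifted to the same median (0.58, adjusted p = 0.062), under quantile normalization (0.50, adjusted p = 0.12) and with WT PBS 2 (0.38, adjusted p = 0.80).

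Among the surface proteins, Epcam, an adhesion protein of duct and progenitor cells, had 1.91, 2.11, 2.03, 1.30 and 2.58 log2 CPM in PiZ, against -0.09, 0.06, 0.54, 0.25 and 0.01 in WT PBS, a difference of 1.83 ± 0.26 (adjusted p = 1.1e-05). Cd24a had 2.75, 3.24, 3.32, 3.27 and 2.80 log2 CPM in PiZ, against 0.76, 0.56, 1.27, 0.92 and 1.14 in WT PBS, a difference of 2.15 ± 0.28 (adjusted p = 3.4e-06). For both, every PiZ library was above every WT PBS library. Ly6d had 6.59, 6.95, 6.68, 5.71 and 7.31 log2 CPM in PiZ, which is 1862 to 7988 reads per library, against -0.92, -0.77, -2.75, 0.01 and -2.31 in WT PBS, which is 6 to 51 reads. Its difference of 7.99 ± 0.98 (adjusted p = 1.7e-06) was the largest of the 10, and no other of the 10 was as scarce in WT PBS and as abundant in PiZ. Ly6d and Elf3 were above the filter of 0.25 CPM in 3 of the 5 WT PBS libraries. With WT PBS 2 the difference was 7.34 for Ly6d (adjusted p = 6.3e-05), while Epcam at 1.18 (adjusted p = 0.18) and Cd24a at 1.53 (adjusted p = 0.053) lost their calls.

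Sox9, the factor that marks duct and progenitor cells, had 4.23, 3.57, 4.05, 4.21 and 3.77 log2 CPM in PiZ, against 2.91, 1.12, 2.55, 2.62 and 2.65 in WT PBS. The groups did not overlap, and the difference was 1.60 ± 0.45 (3.02-fold, adjusted p = 0.0061). It was not called when libraries were shifted to the same median (0.98, adjusted p = 0.096), under quantile normalization (1.09, adjusted p = 0.064) or with WT PBS 2 (0.90, adjusted p = 0.44). Elf3 had 5.64, 4.45, 3.55, 2.62 and 4.87 log2 CPM in PiZ, against -1.62, -2.30, -1.70, -1.81 and -2.49 in WT PBS. PiZ livers differed among themselves more for Elf3 (SD 1.17) than for any other of the 10, yet the lowest PiZ library held 218 reads and the highest WT PBS library 17. The difference was 6.21 ± 0.68 (adjusted p = 4.4e-07), and 5.14 with WT PBS 2 (adjusted p = 0.0012). Afp, normally silent in adult hepatocytes, had 2.11, 2.72, 2.54, 2.20 and 2.98 log2 CPM in PiZ, against 0.63, 0.88, 0.12, 0.38 and 0.92 in WT PBS. It rose 3.79-fold (1.92 ± 0.23, adjusted p = 1.4e-06), from low counts in both groups: 162 to 397 reads per PiZ library and 47 to 83 per WT PBS library.

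**Figure D1:**
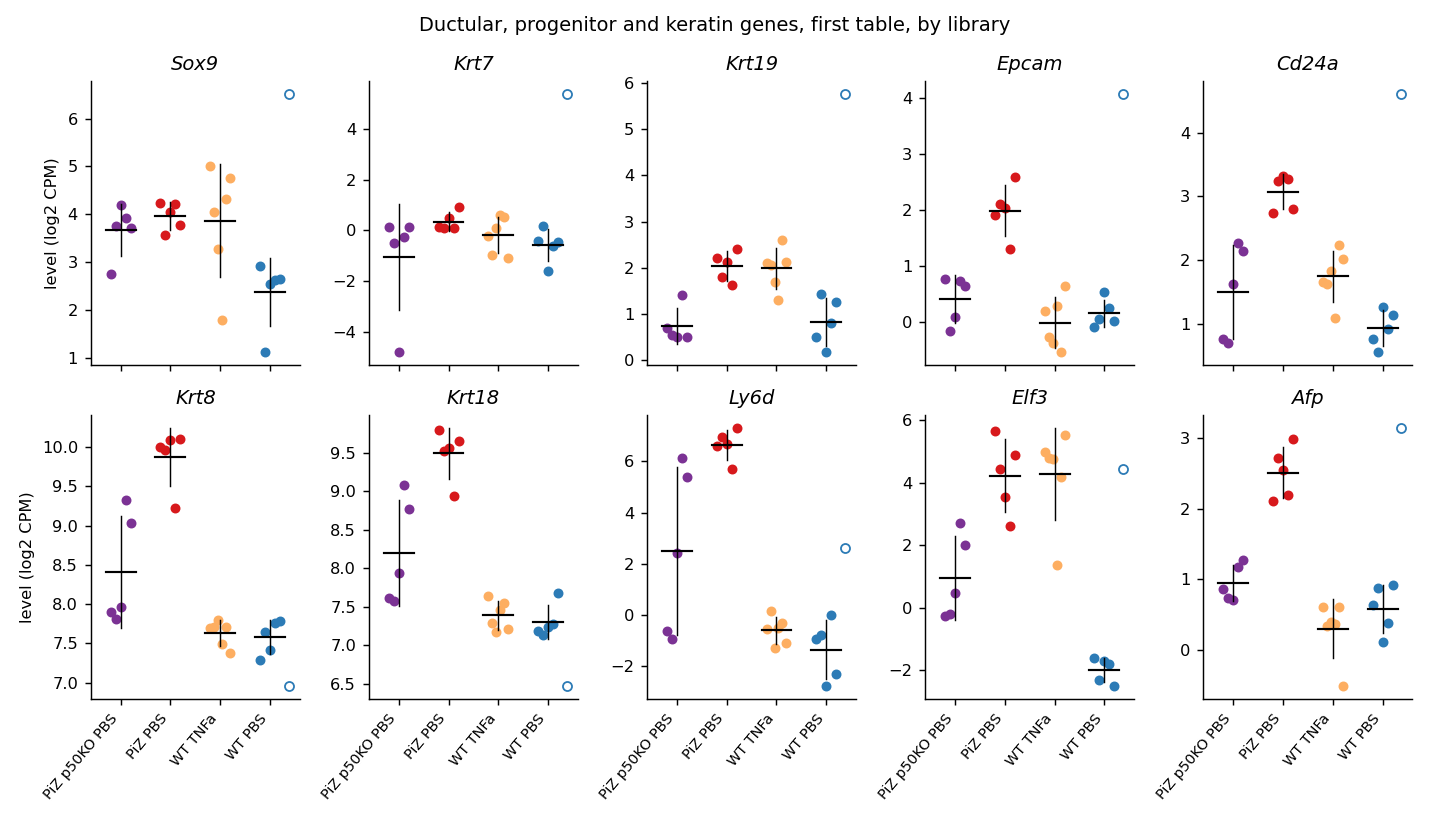
Level of each of the 10 genes (log2 CPM) in every library of the first table. Filled points are libraries, long bars group means and thin bars 1 SD (n = 5, 5, 6 and 5), and the open circle is WT PBS 2, which is in no mean. PiZ libraries lie above the 5 WT PBS libraries for all genes but Krt7, and TNFa libraries reach the PiZ level for Elf3, Krt19 and Sox9.

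Other genes of the same biology were counted from lists. Of 13 tested other cholangiocyte markers, 11 were higher and 0 lower in PiZ than in WT PBS. Examples were Prom1, a surface protein of duct and progenitor cells (log2 fold change 3.5, adjusted p = 2.3e-07), the chloride channel Cftr, with 6 to 24 reads per PiZ library and 0 to 4 per WT PBS library, and the protease Mmp7, with 16 to 83 reads per PiZ library and 0 to 2 per WT PBS library. Both passed the filter on low values through few groups, so their fitted folds are not given. The list's median was 2.24, against 0.42 for all genes, and its summed level was 115 to 164 CPM in PiZ livers and 34.5 to 43.8 CPM in WT PBS livers. Keeping WT PBS 2 in the fit left 4 of the 13 called. Of 12 tested other keratins and keratin partners, 8 were higher and 0 lower. Among them were periplakin (Ppl, 2.84), vimentin (Vim, 2.44) and envoplakin (Evpl), which link or form filaments. Evpl had 15 to 46 reads per PiZ library and 2 to 10 per WT PBS library. All 5 tested Ly6 family neighbours of Ly6d were higher, with Ly6c2 at 3.33, Lynx1 at 2.34 and Ly6e at 2.15. Of 7 tested fetal liver genes and Afp regulators 3 were higher and 0 lower, a share near the 40.8% of all genes. They were lipoprotein lipase (Lpl, 3.90), Igf2bp3 and H19. Igf2bp3 had 16 to 37 reads per PiZ library and 0 to 9 per WT PBS library, and H19 had 10 to 36 and 0 to 10. Of 16 Notch and YAP pathway genes 7 were higher and 0 lower, again near the share of all genes, with a list median of 0.57 against 0.42, including the YAP targets Ankrd1 (14 to 40 reads per PiZ library, 0 to 4 per WT PBS library) and Tnfrsf12a (2.64) and the Notch target Heyl (1.78). Shifting libraries to the same median moved the median of all genes by more than 0.1, to -0.19, and then 10 cholangiocyte markers were higher and 1 lower, 6 other keratins and partners higher and 1 lower, 4 Notch and YAP genes higher and 1 lower, 2 fetal genes higher and 1 lower, and 4 Ly6 neighbours higher and 0 lower. In the fit that kept WT PBS 2 the higher calls numbered 5 for the keratins and partners, 3 for Notch and YAP genes, 1 for fetal genes and 4 for Ly6 neighbours.

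Markers of several other cell types were also higher in PiZ livers. All 6 stellate cell and fibroblast markers were higher, with a summed level of 578 to 859 CPM in PiZ against 130 to 167 CPM in WT PBS, and so were all 5 macrophage markers, at 592 to 804 CPM against 141 to 179 CPM. All 4 proliferation markers were higher, at 20.8 to 29.7 CPM in PiZ and 0.76 to 1.43 CPM in WT PBS. Higher calls were also made for 4 of 5 B cell markers, 4 of 4 endothelial markers, 2 of 5 mesothelial markers and 1 of 4 tested pancreatic acinar markers. These counts stand against 40.8% of all genes called higher, and the mesothelial and acinar counts are no more than that share. None of the 3 tested neutrophil, 3 tested erythroid or 1 tested gut epithelial markers was called by limma. Of 6 hepatocyte markers 3 were lower and 0 higher, with summed levels of 60244 to 87916 CPM in PiZ and 84280 to 110012 CPM in WT PBS. After the shift to the same median all 6 hepatocyte markers and 2 erythroid markers were lower, no endothelial, mesothelial or acinar marker was higher, 1 mesothelial marker was lower, and higher calls were made for 5 stellate, 4 macrophage, 3 B cell and 4 proliferation markers. Keeping WT PBS 2 gave 5, 5, 0 and 4 higher calls for these 4 lists, 3 for endothelial markers, and 0 for mesothelial, acinar and hepatocyte markers in either direction. The part of these cells in the changes of the 10 genes was not tested.

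WT TNFa livers, collected 2 h after injection, were compared with WT PBS livers to ask what acute TNFa signalling changes. Elf3, Krt19 and Sox9 were higher, while Krt8, Krt18, Krt7, Epcam, Cd24a, Ly6d and Afp were not called. The 3 calls stand against 6.53% of all genes called higher and 3.45% called lower, and 1.73% higher with WT PBS 2, where Elf3 alone of the 10 was called (5.19, adjusted p = 0.0027). Elf3 had its lowest TNFa value at 1.38, its median at 4.78 and its highest at 5.53 log2 CPM, against -2.49 to -1.62 in WT PBS, a difference of 6.26 ± 0.65 (adjusted p = 3.2e-06). Every TNFa library was above every WT PBS library, as for 3.42% of all genes tested. WT TNFa 4, the library with the low Nfkb1, was the lowest. Krt19 was lowest at 1.31, with a median of 2.08 and a highest value of 2.61 log2 CPM in TNFa livers, against 0.18 to 1.43 in WT PBS livers, a difference of 1.15 ± 0.25 (adjusted p = 0.0040). Its 2 groups overlapped only through WT TNFa 4. The highest Krt19 was in WT TNFa 5, whose pancreatic acinar list summed to 2501 CPM. That list ranged from 17.0 to 2501 CPM in TNFa livers and from 15.8 to 23.1 CPM in WT PBS livers. Krt19 stayed called by limma whichever library was left out (adjusted p at most 0.017). The part of acinar tissue in its level was not tested.

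Sox9 was more variable. TNFa livers had a lowest value of 1.78, a median of 4.19 and a highest value of 5.00 log2 CPM, against 1.12 to 2.91 in WT PBS livers. The difference of 1.5 ± 0.43 (adjusted p = 0.027) lost its call without WT TNFa 1 (1.27, adjusted p = 0.076), 2 (1.46, adjusted p = 0.057), 5 (1.41, adjusted p = 0.060) or 6 (1.32, adjusted p = 0.071), without WT PBS 3 (1.19, adjusted p = 0.091), and with these 2 groups alone in the fit (adjusted p = 0.10). Without WT TNFa 4 and PiZ p50KO 1 and 2, 4 of the 10 genes were higher, against 8.91% of all genes: Sox9 at 1.91 (adjusted p = 0.00017), Elf3 at 6.83, Krt19 at 1.29 (adjusted p = 0.0011) and Cd24a at 0.95 (adjusted p = 0.0010). In the fit with all 6 TNFa libraries Cd24a differed by 0.81 (95% interval 0.26 to 1.37, adjusted p = 0.056), and with these 2 groups alone in the fit it was called (adjusted p = 0.031). The hepatocyte keratins were close to WT PBS, with differences of 0.05 for Krt8 (interval -0.43 to 0.53) and 0.09 for Krt18 (interval -0.38 to 0.55), intervals that do not reach the changes seen in PiZ. Ly6d ranged from -1.28 to 0.15 log2 CPM in TNFa livers and from -2.75 to 0.01 in WT PBS livers, and Epcam and Afp differed by -0.16 and -0.28, with adjusted p = 0.81 and 0.55.

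The calls among list genes with TNFa stand against 6.53% of all genes called higher and 3.45% called lower. Of 13 other cholangiocyte markers 1 was higher, Tspan8 (0.87, adjusted p = 0.0084), and 1 was lower. Among 16 Notch and YAP pathway genes 4 were higher and 4 lower, with the Notch targets Hes1 (-2.25, adjusted p = 0.0025) and Hey1 (-2.19, adjusted p = 0.039) and the YAP target Ccn1 (-1.78, adjusted p = 0.00048) lower. Hey1 had 0 to 19 reads per TNFa library and 14 to 40 per WT PBS library. Other keratins and partners gave 1 higher, plectin (Plec, 1.03), and 1 lower, Krt80 (-2.46), of 12. Krt80 rests on few reads, 0 to 10 per TNFa library and 8 to 21 per WT PBS library. In the fetal list the Afp repressor Zhx2 was the 1 gene of 7 that rose (1.18, adjusted p = 0.00014), and of 5 Ly6 neighbours Ly6c2 rose (2.08, adjusted p = 0.033). All 3 tested neutrophil markers rose, and their list summed to 5.81 to 93.1 CPM in TNFa livers and 1.39 to 15.1 CPM in WT PBS livers. The fit that kept WT PBS 2 called 1 neutrophil marker higher, 0 Notch and YAP genes higher and 2 lower, 1 cholangiocyte marker and 1 keratin or partner lower, and no other gene of these lists. After the shift to the same median 4 keratins and partners and 2 cholangiocyte markers were higher.

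The direct comparison of PiZ with TNFa livers, in which genotype and treatment differ together, separated the 10 genes. Krt8 (2.25 ± 0.23), Krt18 (2.10 ± 0.22), Epcam (2.00 ± 0.25), Cd24a (1.33 ± 0.27), Ly6d (7.23 ± 0.93) and Afp (2.21 ± 0.22) were higher in PiZ, 6 of the 10 against 43.6% of all genes, with adjusted p between 1.2e-07 for Afp and 0.00031 for Cd24a. For the same 6 every PiZ library was above every TNFa library, as for 27.5% of all genes tested. Keeping WT PBS 2 in the fit left 5 of the 10 called, without Cd24a (adjusted p = 0.073). Elf3 differed by -0.05 (interval -1.39 to 1.30), Sox9 by 0.10 (interval -0.79 to 0.99), Krt19 by 0.05 (interval -0.47 to 0.57) and Krt7 by 0.53 (interval -0.80 to 1.85), and none of these 4 was called. Their intervals allow differences of 1.30 or more for Elf3 and of about 0.57 for Krt19, and the estimates for Sox9 and Krt19 turned negative when libraries were shifted to the same median. Under quantile normalization Krt19 was lower in PiZ than in TNFa livers (-0.60, adjusted p = 0.045).

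**Figure D2:**
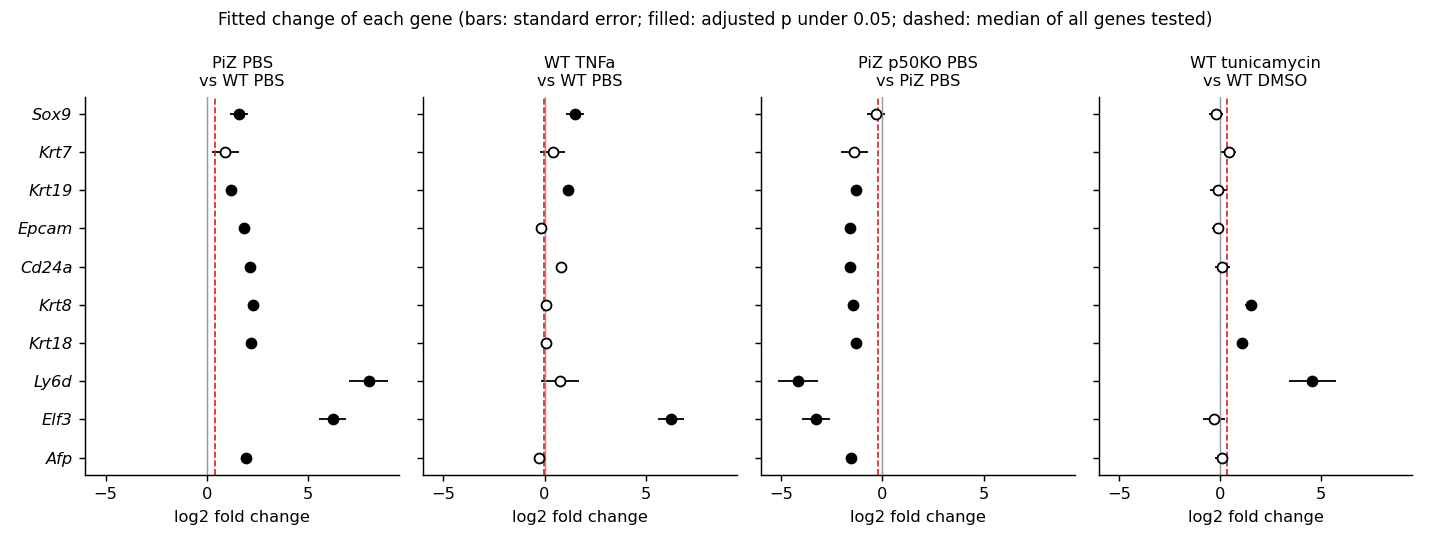
Log2 fold change of each gene in 4 comparisons, the first-named group over the second, with bars of 1 standard error. Filled points passed an adjusted p under 0.05 in limma and the dashed line is the median of all genes tested. Filled points number 9, 3, 8 and 3 from left to right.

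The libraries labelled PiZ p50KO were compared with PiZ to ask which changes of PiZ livers need p50. Krt8, Krt18, Krt19, Epcam, Cd24a, Ly6d, Elf3 and Afp were lower in PiZ p50KO, 8 of the 10, against 17.7% of all genes called lower, and Sox9 and Krt7 were not called. The 10 genes had a median of -1.51, and all genes tested one of -0.24. For Krt19, Epcam, Cd24a and Afp every PiZ p50KO library was below every PiZ library, as for 11.3% of all genes tested. The same PiZ libraries serve in the comparison with WT PBS, so the values of both stand side by side and no relation between the 2 comparisons is drawn. With WT PBS 2 in the fit, 3 of the 10 were called (Krt8, Krt18 and Ly6d), against 2.03% of all genes. The differences themselves are the same in that fit, which pools the spread of all groups.

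Krt8 had 7.90, 7.81, 7.97, 9.33 and 9.04 log2 CPM in PiZ p50KO 1 to 5, against 9.23 to 10.11 in PiZ, and fell by 1.47 ± 0.24 on the log2 scale (adjusted p = 0.00024). Krt18 had 7.61, 7.58, 7.95, 9.09 and 8.77 log2 CPM in PiZ p50KO, against 8.94 to 9.80 in PiZ, and fell by 1.29 ± 0.23 (adjusted p = 0.00054). PiZ p50KO 4 reached the lowest PiZ library for both keratins, PiZ p50KO 5 was next, and PiZ p50KO 1, 2 and 3 were near or slightly above the WT PBS range. Krt19 had 0.69, 0.54, 0.51, 1.42 and 0.50 log2 CPM in PiZ p50KO, against 1.63 to 2.42 in PiZ, without overlap (-1.31 ± 0.26, adjusted p = 0.0015). Krt7 had 0.14, -0.49, -4.77, -0.26 and 0.15 log2 CPM in PiZ p50KO, against 0.08 to 0.94 in PiZ, and its difference of -1.39 (interval -2.77 to -0.02) was not called (adjusted p = 0.14). A single read stood behind the -4.77 of PiZ p50KO 3.

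The surface proteins split the PiZ p50KO libraries. Ly6d had -0.60, -0.91, 2.42, 6.14 and 5.41 log2 CPM in PiZ p50KO, against 5.71 to 7.31 in PiZ, a difference of -4.16 ± 0.98 (adjusted p = 0.0047). Libraries 1 and 2 were at the WT PBS level, library 3 was between the groups, library 4 was inside the PiZ range and library 5 just under it. Cd24a had 0.76, 0.71, 1.63, 2.28 and 2.14 log2 CPM in PiZ p50KO, against 2.75 to 3.32 in PiZ, without overlap (-1.57 ± 0.28, adjusted p = 0.00048). Epcam had 0.76, -0.17, 0.09, 0.73 and 0.64 log2 CPM in PiZ p50KO, against 1.30 to 2.58 in PiZ, also without overlap (-1.58 ± 0.26, adjusted p = 0.00030). For Epcam libraries 4 and 5 did not stand apart from the other 3.

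Elf3 had -0.26, -0.20, 0.48, 2.72 and 2.01 log2 CPM in PiZ p50KO, against 2.62 to 5.64 in PiZ, a difference of -3.28 ± 0.68 (adjusted p = 0.0018), and PiZ p50KO 4 was the 1 library that entered the PiZ range. Afp had 0.87, 0.74, 0.70, 1.17 and 1.28 log2 CPM in PiZ p50KO, against 2.11 to 2.98 in PiZ, a difference of -1.56 ± 0.23 without overlap (adjusted p = 9.5e-05). Sox9 behaved otherwise. It had 2.75, 3.75, 4.2, 3.91 and 3.72 log2 CPM in PiZ p50KO, against 3.57 to 4.23 in PiZ, and differed by -0.30 (interval -1.23 to 0.63, adjusted p = 0.69). Among the 5 libraries the lowest Sox9 was in PiZ p50KO 1 and the highest in PiZ p50KO 3, so its order was not that of Ly6d, Krt8 or Elf3.

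Libraries 1 and 2, in which Nfkb1 was highest, had 7 and 6 of the 10 genes inside the WT PBS range, and libraries 3, 4 and 5 had 3, 2 and 2. Inside the PiZ range were 1, 1, 1, 5 and 2 genes in libraries 1 to 5. The share of all genes inside these ranges was not counted per library, so these counts cannot be called particular to the 10 genes. Without PiZ p50KO 1 and 2 and WT TNFa 4, 7 of the 10 were lower in PiZ p50KO than in PiZ, against 8.81% of all genes. Ly6d was the 1 call lost (-1.99 ± 0.68, adjusted p = 0.070), Elf3 fell by 2.49 (adjusted p = 0.0057), Krt8 by 1.10 (adjusted p = 0.0065), and Epcam and Afp differed by -1.5 and -1.46. The macrophage list summed to 424 and 453 CPM in PiZ p50KO 4 and 5, within a group range of 213 to 453 CPM, against 592 to 804 CPM in PiZ, and the cholangiocyte list to 86.5 and 83.8 CPM, within 50.3 to 86.5 CPM, against 115 to 164 CPM. All 5 macrophage markers, 5 of 6 stellate cell and fibroblast markers and all 4 proliferation markers were lower in PiZ p50KO, against 17.7% of all genes. With WT PBS 2 kept in the fit these calls numbered 3, 3 and 0, and without PiZ p50KO 1 and 2 and WT TNFa 4 they numbered 4, 4 and 3. The pancreatic acinar list, of which 0 of 4 tested genes was called, summed to 18.3 to 756 CPM in PiZ p50KO, with 756 CPM in library 4, and 19.6 to 78.9 CPM in PiZ. The part of these cells in the lower levels was not tested.

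**Figure D3:**
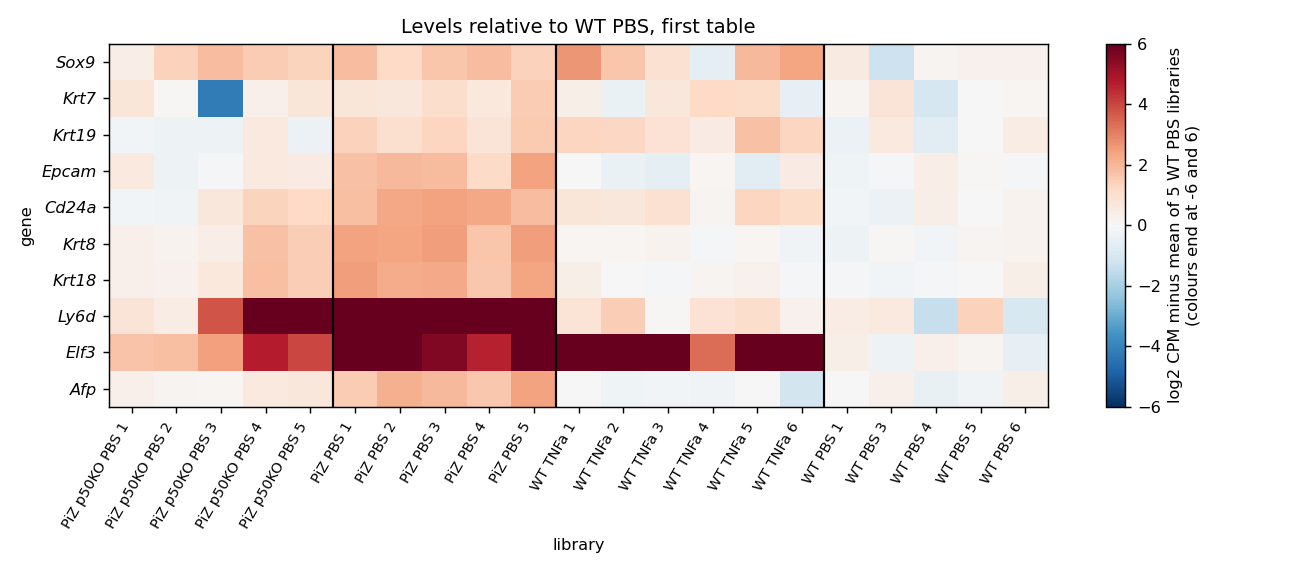
Level of each gene in each first-table library minus the mean of the 5 WT PBS libraries (log2 CPM, colour scale ends at -6 and 6), with groups from left to right PiZ p50KO, PiZ, TNFa and WT PBS. PiZ p50KO 1 and 2 are pale for all genes but Elf3 and, in library 2, Sox9, whereas libraries 4 and 5 keep high Ly6d and raised Elf3, Krt8 and Krt18.

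The list counts that follow stand against 17.7% of all genes called lower in PiZ p50KO than in PiZ. Of 13 tested other cholangiocyte markers 10 were lower and 0 higher, led by Prom1 (-3.38, adjusted p = 2.4e-06). Mmp7 had 0 to 10 reads per PiZ p50KO library and 16 to 83 per PiZ library, and Cftr had 0 to 12 and 6 to 24 reads in PiZ p50KO and PiZ. Lower calls were also made for 4 of 12 other keratins and partners, led by Vim (-1.68), Ppl (-1.57) and desmin (Des, -1.11). The same held for 4 of 16 Notch and YAP pathway genes, led by Tnfrsf12a (-2.18), Heyl (-1.09) and the YAP paralogue Wwtr1 (-0.83), and for 3 of 5 Ly6 neighbours, Lynx1 (-1.54), Ly6e (-1.2) and Ly6a (-0.83). In the fetal list Lpl was the 1 of 7 that fell (-2.68, adjusted p = 5.9e-06). After the shift to the same median the lower calls numbered 8 for cholangiocyte markers, 4 for keratins and partners, 2 for Notch and YAP genes, 2 for Ly6 neighbours and 1 for fetal genes, with 1 fetal gene and 1 Notch or YAP gene higher. Keeping WT PBS 2 gave 3, 1, 2, 0 and 1 lower calls for the same lists. Without PiZ p50KO 1 and 2 and WT TNFa 4, 9 of the 13 cholangiocyte markers were called lower.

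Set directly against WT PBS, PiZ p50KO livers were higher for 4 of the 10 genes, against 7.97% of all genes: Elf3 (2.93 ± 0.68, adjusted p = 0.013), Ly6d (3.84 ± 0.98, adjusted p = 0.020), Krt18 (0.90 ± 0.23, adjusted p = 0.023) and Krt8 (0.83 ± 0.24, adjusted p = 0.035). For Krt8 and Elf3 every PiZ p50KO library was above every WT PBS library, as for 5.28% of all genes tested. Leaving out 1 library ended several calls: Krt8 lost its call without library 4 (0.60, adjusted p = 0.11) or 5 (0.67, adjusted p = 0.10), Krt18 likewise (0.67, adjusted p = 0.068, and 0.75, adjusted p = 0.064), and Ly6d likewise (2.93, adjusted p = 0.063, and 3.11, adjusted p = 0.059). Krt8 also lost it without WT PBS 1, 4, 5 or 6 (0.76, 0.79, 0.87 and 0.88, adjusted p = 0.071, 0.077, 0.054 and 0.056), and Ly6d without WT PBS 4 or 6 (3.49 and 3.60, adjusted p = 0.055 for both). In the fit with WT PBS 2, 0 of the 10 were called by limma and 3 had an unadjusted p under 0.05, whereas voom on recovered reads without WT PBS 2 called 2. Krt19 differed by -0.10 (interval -0.65 to 0.44), Epcam by 0.26 (interval -0.29 to 0.81), Afp by 0.37 (interval -0.11 to 0.85) and Krt7 by -0.47 (interval -1.85 to 0.91). For Krt19, Epcam and Afp these intervals end below the differences of the same genes between PiZ and WT PBS. Sox9 at 1.30 (interval 0.37 to 2.23, adjusted p = 0.071) and Cd24a at 0.57 (adjusted p = 0.21) were called once PiZ p50KO 1 and 2 and WT TNFa 4 were left out, at 1.57 (adjusted p = 0.0049) and 1.08 (adjusted p = 0.0015), which made 6 of the 10.

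Tunicamycin livers, collected at 24 h, were compared with DMSO livers within the second table to ask what endoplasmic reticulum stress from blocked glycosylation changes. Krt8, Krt18 and Ly6d were higher, and Sox9, Krt7, Krt19, Epcam, Cd24a, Elf3 and Afp were not called. Of all genes 39.2% were called higher and 12.3% lower, with a median of 0.36, so 3 of 10 higher is no more than the share over all genes. The median over the 10 genes was 0.10. In 3 tunicamycin libraries the column name gives the group but not the replicate number, and these are called a, b and c.

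Krt8 had a lowest value of 8.39, a median of 9.41 and a highest of 10.20 log2 CPM in tunicamycin livers, against 7.12, 7.89 and 8.23 in DMSO livers, and rose 2.91-fold (1.54 ± 0.29, adjusted p = 0.00070). Krt18 had 7.99, 8.55 and 8.75 log2 CPM as its lowest, median and highest value in tunicamycin livers, against 6.64, 7.40 and 7.95 in DMSO livers, and rose 2.15-fold (1.11 ± 0.20, adjusted p = 0.00047). For both, every tunicamycin library was above every DMSO library, as for 24.0% of all genes tested. Ly6d had 0.96, 5.27, 7.25, -0.85, 5.93 and 4.23 log2 CPM in tunicamycin 1, 5, 6, a, b and c, against a lowest value of -3.02, a median of -0.77 and a highest of 0.90 in DMSO livers, a difference of 4.55 ± 1.16 (adjusted p = 0.0051). Tunicamycin 5, 6, b and c were far above the DMSO libraries, tunicamycin 1 was just above the highest of them and tunicamycin a was inside their range.

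The stress chaperone gene Hspa5 and the stress factor gene Ddit3, chosen after their values were seen, give the size of the response in each liver. Hspa5 was at 7005, 15128, 19253, 6636, 10488 and 16645 CPM in tunicamycin 1, 5, 6, a, b and c, and Ddit3 at 319, 927, 1014, 37.3, 315 and 951 CPM. Tunicamycin 1 and a, lowest in Hspa5, were also lowest in Ly6d and Krt8, and tunicamycin 6 was highest in all of these 4 genes. The orders were not the same throughout. Tunicamycin b was below 5 and c in Hspa5 and Ddit3, but its Ly6d of 5.93 log2 CPM was above their 5.27 and 4.23. In Ddit3 tunicamycin b was also slightly below tunicamycin 1. Their order was described and not tested.

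The duct and progenitor genes did not follow. Sox9 ranged from 2.55 to 4.25 log2 CPM in tunicamycin livers and from 2.39 to 4.51 in DMSO livers (difference -0.20, interval -0.90 to 0.50). Krt19 ranged from 0.03 to 2.33 log2 CPM in tunicamycin livers and from 0.34 to 2.62 in DMSO livers (-0.08, interval -0.95 to 0.79). Neither gene shifted beyond the spread of its libraries. Epcam ranged from 0.02 to 0.59 in tunicamycin livers and from -0.06 to 1.71 in DMSO livers (-0.12, interval -0.71 to 0.47). Cd24a ranged from 0.61 to 1.48 in tunicamycin livers and from -0.06 to 2.7 in DMSO livers (0.12, interval -0.69 to 0.92). The highest DMSO value of each of these 4 genes came from 1 library, DMSO 5. Elf3 ranged from -1.71 to 0.73 log2 CPM in tunicamycin livers and from -1.42 to 2.06 in DMSO livers (-0.29, interval -1.45 to 0.87). Afp ranged from 1.57 to 3.51 in tunicamycin livers and from 1.41 to 2.38 in DMSO livers (0.08, interval -0.59 to 0.75), and its highest value was in tunicamycin a. For Krt7 the difference was 0.42 (interval -0.38 to 1.22, adjusted p = 0.36). The groups overlapped for all 7 of these genes.

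DMSO 5 was the highest of the 6 DMSO libraries for all 10 genes, with 4.51 log2 CPM for Sox9, 1.94 for Krt7, 2.62 for Krt19, 1.71 for Epcam, 2.7 for Cd24a and 2.06 for Elf3. Its macrophage list summed to 545 CPM, within a DMSO range of 152 to 545 CPM, against 154 to 218 CPM in tunicamycin livers, and its stellate cell and fibroblast list to 295 CPM, within 191 to 295 CPM, against 197 to 216 CPM. Without DMSO 5, Krt7 was called higher in tunicamycin livers (0.77, adjusted p = 0.019) and the other calls stayed on their side of the threshold. The list counts that follow stand against 39.2% of all genes called higher and 12.3% called lower. Of 11 tested other cholangiocyte markers 1 was higher, Krt23 (2.87), which is also a keratin, and 1 was lower. Of 12 other keratins and partners 4 were higher and 1 lower, with Krt23, Sqstm1 (1.73), whose protein gathers with keratins in hepatocyte inclusions, and desmoplakin (Dsp, -1.45). Notch and YAP pathway genes gave 5 higher and 2 lower of 15, with Tnfrsf12a (4.24), Ccn2 (1.93) and Heyl (-2.11), fetal genes 0 higher and 3 lower of 6, led by Scd2 (-1.48), and Ly6 neighbours 0 higher and 1 lower of 4, Ly6e (-1.32). Hepatocyte markers were higher for 1 and lower for 4 of 6, with a summed level of 23248 to 63107 CPM in tunicamycin livers against 82696 to 108045 CPM in DMSO livers, and 3 of 4 tested pancreatic acinar markers were higher. After the shift to the same median, which moved the median of all genes to -0.03, cholangiocyte markers gave 1 higher and 4 lower, keratins and partners 4 higher and 6 lower, Notch and YAP genes 2 higher and 4 lower, fetal genes 0 higher and 4 lower and Ly6 neighbours 0 higher and 2 lower, and the hepatocyte and acinar counts did not change.

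**Figure D4:**
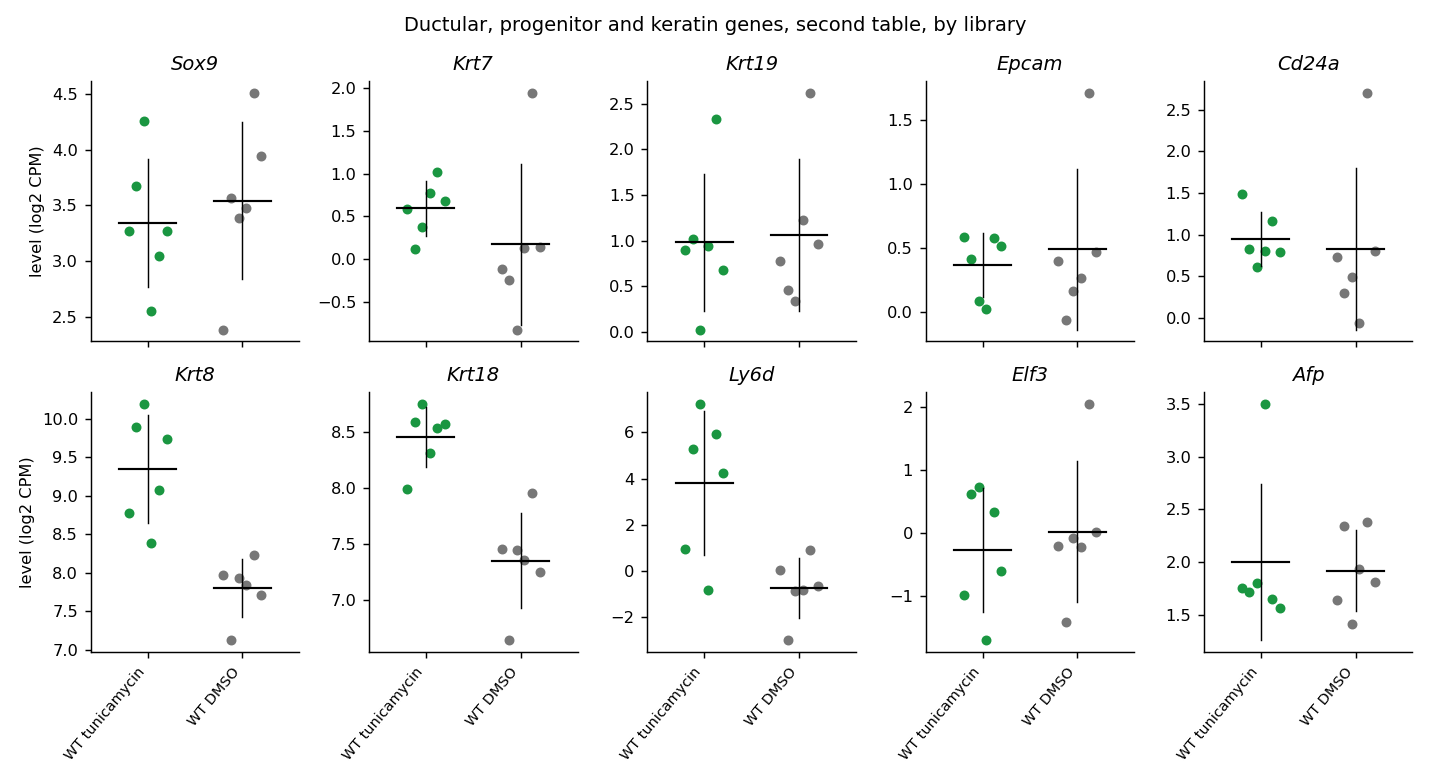
Level of each gene (log2 CPM) in the 6 tunicamycin and 6 DMSO libraries of the second table, with group means (long bars) and 1 SD (thin bars). Krt8 and Krt18 do not overlap between the groups, Ly6d spreads from -0.85 to 7.25 in tunicamycin livers, and the top DMSO point is the same library, DMSO 5, in all 10 panels.

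Krt8 and Krt18 kept near the same ratio in most groups. Krt8 minus Krt18 averaged 0.21 ± 0.11 in PiZ p50KO, 0.39 ± 0.13 in PiZ, 0.24 ± 0.24 in TNFa and 0.28 ± 0.20 in WT PBS (log2, SD, n = 5, 5, 6 and 5). It averaged 0.89 ± 0.52 in tunicamycin livers and 0.46 ± 0.09 in DMSO livers (n = 6 each), where it ran from 0.08 to 1.45 among tunicamycin libraries and from 0.28 to 0.53 among DMSO libraries. In exact two-sided permutation tests the difference was 0.11 for PiZ against WT PBS (p = 0.29), -0.03 for TNFa against WT PBS (p = 0.80), -0.18 for PiZ p50KO against PiZ (p = 0.071) and 0.44 for tunicamycin against DMSO (p = 0.091). None passed after adjustment over the 4 comparisons (adjusted p = 0.39, 0.80, 0.18 and 0.18), and the smallest p these designs allow is 0.0079, 0.0043, 0.0079 and 0.0022. Without tunicamycin a, the difference between tunicamycin and DMSO was 0.60 and passed the threshold (exact permutation, adjusted p = 0.017).

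Across the 33 libraries used, each gene centred on its mean within each table, the genes with the nearest pattern by root mean square difference of log2 CPM, among 15862, were as follows. Krt8 was nearest to Krt8-ps (0.22), Krt18 (0.28) and Anxa5 (0.33), and Krt18 to Ube2l6 (0.24), Nenf (0.26) and Krt8 (0.28). Epcam was nearest to Scara3, Tmem176b and Ppic, Cd24a to Anxa3, Il10rb and Tnfaip8, and Afp to Ptgfrn, Mcm5 and Wls, all between 0.36 and 0.42. Krt19 was nearest to Cxcl16, St6gal1 and Ifngr2 (0.47 to 0.51), and Ikzf1 and Dtx4 were near Sox9 (both 0.55). Elf3 had no gene nearer than Il1rn (0.88), followed by Adamts4 and Pik3r5, and Ly6d none nearer than Ccdc120 (1.45), followed by Bmp8b and Asns, and these 2 genes also varied most about their own means (2.31 for Elf3 and 3.36 for Ly6d, against 0.72 to 1.00 for the other 8). Between members, the closest pair was Krt8 and Krt18, followed by Epcam and Cd24a (0.56).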

How the data were processed

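Liver RNA libraries were sequenced in 2 batches, and the authors deposited a table of log2 CPM values per gene for each. Per the submitters' processing notes, bcl2fastq, DRAGEN, STAR, Subread, featureCounts and edgeR were used with build GRCm38. Their order and settings, and whether counting used strand, are not given in the sources used here. Whole reads were recovered from the log2 values, and 100% of the low values checked were whole within 0.1 read. Each table holds 55774 rows for 55487 gene IDs. In 3 tunicamycin columns the name gives the group only.

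Each table was fitted by itself with limma 3.58.1 in R 4.3.3 on the deposited log2 values (empirical Bayes with a trend, two-sided), for genes above 0.25 CPM in at least 5 (first table) or 6 (second table) libraries. All first-table groups shared 1 fit, without WT PBS 2. This left 16805 and 17106 genes, all 10 members among them. P-values were Benjamini-Hochberg adjusted over all genes tested, with a threshold of 0.05, and intervals are 95%. Sums, exact permutation tests and pattern distances used Python 3.11.15, pandas 2.3.3 and scipy 1.17.1. The fitting code was tested on simulated data. Alternatives were another filter, no filter, a pseudocount of 1 CPM, shifting all libraries to a common median, quantile normalization, fits of 2 groups, robust moderation, a replicate block, voom on recovered reads, and other sets of libraries. The members, gene lists and alternatives were chosen with earlier results of these data known. Of each pathway list, up to 3 called genes with the largest change are named per comparison, and for each member called in PiZ the 3 nearest patterns, leaving out predicted genes. A few genes that these rules select are not reported here.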

Additional observations from a re-analysis of the deposited data

Results flagged for a closer look

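Of 60 groups of values (10 genes in 6 groups, WT PBS with all 6 libraries), 16 held a library whose gap to its neighbour was large against the range of its group by Dixon's criterion. Chance flags about 1 in 20 groups. In 7 of the 16 the library was WT PBS 2, with 6.52 log2 CPM for Sox9, 5.37 for Krt7, 5.76 for Krt19, 4.07 for Epcam, 4.61 for Cd24a, 3.14 for Afp and 4.42 for Elf3. DMSO 5 stood above its group for Krt7 at 1.94, Epcam at 1.71 and Cd24a at 2.7 log2 CPM. In WT TNFa livers, Elf3 was low in library 4 at 1.38 and Afp was low in library 6 at -0.51 log2 CPM. In PiZ p50KO livers, Krt7 was low in library 3 at -4.77 and Krt19 high in library 4 at 1.42 log2 CPM. Krt8 was low in PiZ 4 at 9.23 log2 CPM, and Afp high in tunicamycin a at 3.51 log2 CPM.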

How the results depend on the processing

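For called differences of the 10 genes, 650 of 699 alternative values stayed past the threshold, 49 did not and 0 changed direction. For uncalled ones, 513 of 570 kept direction and side, 8 passed the threshold and 49 changed direction. The causes were not tested. With WT PBS 2, 5 genes were called for PiZ against WT PBS, 1 for TNFa against WT PBS, 3 for PiZ p50KO against PiZ and 0 for PiZ p50KO against WT PBS (limma, 3 at an unadjusted p under 0.05). For the last comparison a median shift gave 2, a fit of 2 groups 1, voom 2 and leaving out 1 library 1 to 5. In the second table a fit of 2 groups is the fit reported.

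Uncalled differences changed direction as follows. With WT PBS 2, Krt7 was -0.067 for PiZ and -0.59 for TNFa against WT PBS, and for PiZ p50KO against WT PBS Epcam was -0.40, Cd24a -0.042 and Afp -0.060. With a median shift, Sox9 was 0.049 for PiZ p50KO against PiZ, Epcam -0.016 for PiZ p50KO against WT PBS, Sox9 -0.48, Krt7 -0.057 and Krt19 -0.53 for PiZ against TNFa, and Cd24a -0.27 and Afp -0.31 for tunicamycin. Under quantile normalization, Krt8 was -0.0066 for TNFa against WT PBS, Epcam -0.095 for PiZ p50KO against WT PBS, Sox9 -0.29, Krt7 -0.28 and Krt19 -0.60 for PiZ against TNFa, and Cd24a -0.12 and Afp -0.22 for tunicamycin. With a pseudocount of 1 CPM, Krt7 was 0.0024 for PiZ p50KO against WT PBS. Without WT TNFa 4 and PiZ p50KO 1 and 2, Sox9 was -0.32 and Krt19 -0.084 for PiZ against TNFa, and Krt8 minus Krt18 was 0.010 for TNFa against WT PBS.

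Same-numbered libraries correlated between -0.17 and 0.34 in their deviations, over 0.1 for every number in no comparison, so the numbers were not taken as a pairing. With a replicate block Elf3 was 0.033 for PiZ against TNFa, and for tunicamycin, with numbers 1, 5 and 6 alone, Sox9 was 0.12, Krt7 -0.30, Cd24a -0.44 and Afp -0.18. The block gave 9, 3, 8, 3, 6 and 3 called genes for PiZ, TNFa, PiZ p50KO against PiZ, PiZ p50KO against WT PBS, PiZ against TNFa, and tunicamycin.

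Leaving out 1 library at a time gave, for PiZ against TNFa, Sox9 -0.32 to 0.32, Krt19 -0.084 to 0.18 and Elf3 -0.62 to 0.36. For PiZ p50KO against WT PBS it gave Krt7 -0.77 to 0.46 and Krt19 -0.28 to 0.046. For TNFa against WT PBS it gave Krt8 -0.021 to 0.10 and Krt8 minus Krt18 -0.11 to 0.024. For tunicamycin it gave Krt19 -0.35 to 0.23, Epcam -0.23 to 0.12, Cd24a -0.060 to 0.49, Afp -0.22 to 0.17 and Elf3 -0.58 to 0.12. Krt8 minus Krt18 was 0.60 without tunicamycin a (exact permutation, adjusted p = 0.017, against 0.18 with it).

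Over all genes, a median shift turned the 6854 higher and 934 lower calls of PiZ against WT PBS into 2425 and 4402, quantile normalization into 2869 and 3122, and WT PBS 2 cut them to 2003 and 350. For tunicamycin the shift turned 6704 higher and 2110 lower into 3908 and 4132. Krt7, and Elf3 and Ly6d in WT PBS, rest on few reads.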
